A study of Mus musculus with 282 samples.

Results

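The AXB and BXA recombinant inbred strains were taken as 1 experiment within a survey of the mouse hypothalamus, and their 47 mice were chosen by strain label from the 282 mice of the series. All mice were male, ate a high fat diet, and gave 1 library of whole hypothalamus each; the series covers 99 strains. The 47 mice belong to 18 strains, 10 of the AXB set (AXB-2, 5, 6, 8, 12, 13, 15, 18, 19 and 20, all /PgnJ) and 8 of the BXA set (BXA-2, 4, 7, 8, 11, 12, 14 and 24, all /PgnJ). There were 3 mice in 12 strains, 2 mice in 5 strains (AXB-2, AXB-6, AXB-8, BXA-12 and BXA-24) and 1 mouse in AXB-12. Ages were not given in the labels. The parental strains A/J and C57BL/6J, with 3 mice each on the same diet, served as the reference for which parent a strain resembled, and took no part in finding differences among the 18 strains. A further mouse, whose title names AXB-8 and whose strain label names AXB-6, was left out. The titles of AXB-18 and AXB-20 read AXB19a and AXB19b. Each p-value measures the spread between single mice of a strain, and nothing in the labels says whether mice shared a litter or cage.

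Recombinant inbred strains are made by crossing a pair of inbred strains and then mating siblings until nearly every locus is fixed for 1 of the parental alleles. Each AXB or BXA strain is therefore a fixed mosaic of A/J and C57BL/6J chromosome segments, and the strain name order gives the direction of the founding cross. A gene whose level follows a nearby sequence difference is known to segregate in such strains, with each strain at the level of 1 parent, while a mutation that arose after the cross is carried by 1 strain and by neither parent.

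The libraries held 6730028 to 23079446 read pairs, and the FPKM (fragments scaled for transcript length and library size) of all gene rows summed to 326972 to 352585 per mouse. Hypothalamic markers were present in all 47 mice: Pmch, which encodes melanin-concentrating hormone, ran from 289.8 to 665.04 FPKM, and Hcrt, the orexin precursor, from 62.9 to 220.3 FPKM. Genes of the anterior pituitary (6 measured) summed to a median of 28.3 FPKM and to over 1000 FPKM in 4 mice (AXB-2 replicate 1, AXB-8 replicate 2, BXA-8 replicate 3 and BXA-14 replicate 1), the highest at 15828. Genes of the choroid plexus (5 measured) summed to a median of 21.3 FPKM and to over 500 FPKM in 8 mice (AXB-2 replicate 1, AXB-19 replicate 2, BXA-2 replicate 2, BXA-7 replicates 2 and 3, BXA-8 replicate 2 and BXA-11 replicates 1 and 2), the highest at 1498. Of the parental mice, C57BL/6J replicate 3 had 1422 FPKM of these genes. Counts of called genes and of 1-strain genes without these mice, and those of gene lists that moved by over 1.5 times, are given below.

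Expression differed among the 18 strains in 4719 of 14079 genes, 33.5% of those tested (moderated F test of limma on log2(FPKM + 1), Benjamini-Hochberg adjusted p under 0.05). The share of variance that lay between strains (an intraclass correlation, 1 where mice of a strain are identical and strains differ) had a median of 0.246 over all genes and 0.493 over the called genes. It was at least 0.8 in 354 genes and at least 0.9 in 159 genes. For most called genes the differences were small: the strain means of the median called gene spanned 0.56 on the log2 scale, beside a spread within strains of 0.13 (SD), and 784 called genes spanned at least 1. Without the 8 mice rich in choroid plexus genes, 2876 genes were called, of which 2715 were among the 4719, and without the 4 rich in pituitary genes 3775, of which 3566 were. Leaving out replicate 1, 2 or 3 of each strain lowered the count to 2062, 989 and 2076, of which 1796, 936 and 1939 were among the 4719. Without AXB-18 and AXB-20, 3648 genes were called, of which 3555 were among the 4719. In bulk tissue, fewer cells of a type and less RNA per cell cannot be told apart.

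The parents were then compared at these genes. A/J and C57BL/6J differed in 1730 of 14079 genes (12.3%; limma contrast fitted with the 18 strains, adjusted p under 0.05), with 683 (4.85%) higher and 1047 (7.44%) lower in A/J. The contrast called 803 genes from the 6 parental mice alone and 853 to 916 with 1 replicate left out. Among the 4719 genes called between the recombinant strains, 1248 (26.4%) differed between the parents, and among the 9360 genes not called, 482 (5.15%) did. Both tests took their spread mostly from the same mice, so a gene with a small spread passes both more easily. For the other 3471 called genes, the 6 parental mice gave no call. A missed threshold with 3 mice each does not show that the parents were alike.

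A clearer set of genes fell into a pair of separate levels. A gene was placed in 2 classes when every mouse of at least 3 strains lay above every mouse of all the others by at least 0.25 on the log2 scale, the cut being set at the widest gap between strain means. This held for 145 genes, 1.03% of those tested. The parents, which had not been used to set the cut, lay in opposite classes at 145 of these 145 genes, and all 6 parental mice were on their parent's side at 139. All 145 passed the parental contrast fitted with the 18 strains, against 12.3% of all genes in that fit. That fit drew its spread mostly from the mice by which the genes were chosen, which favours this count. The higher class held 3 to 14 strains (median 9), and the gap between the nearest mice was 0.26 to 4.89 (median 0.64) on the log2 scale, at least 1 in 48 genes. Leaving out replicate 1, 2 or 3 gave 167 to 191 such genes and kept at least 141 of the 145. At a given cut, dropping mice can only keep or widen the gap, so these counts are a weak check.

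**Figure D1:**
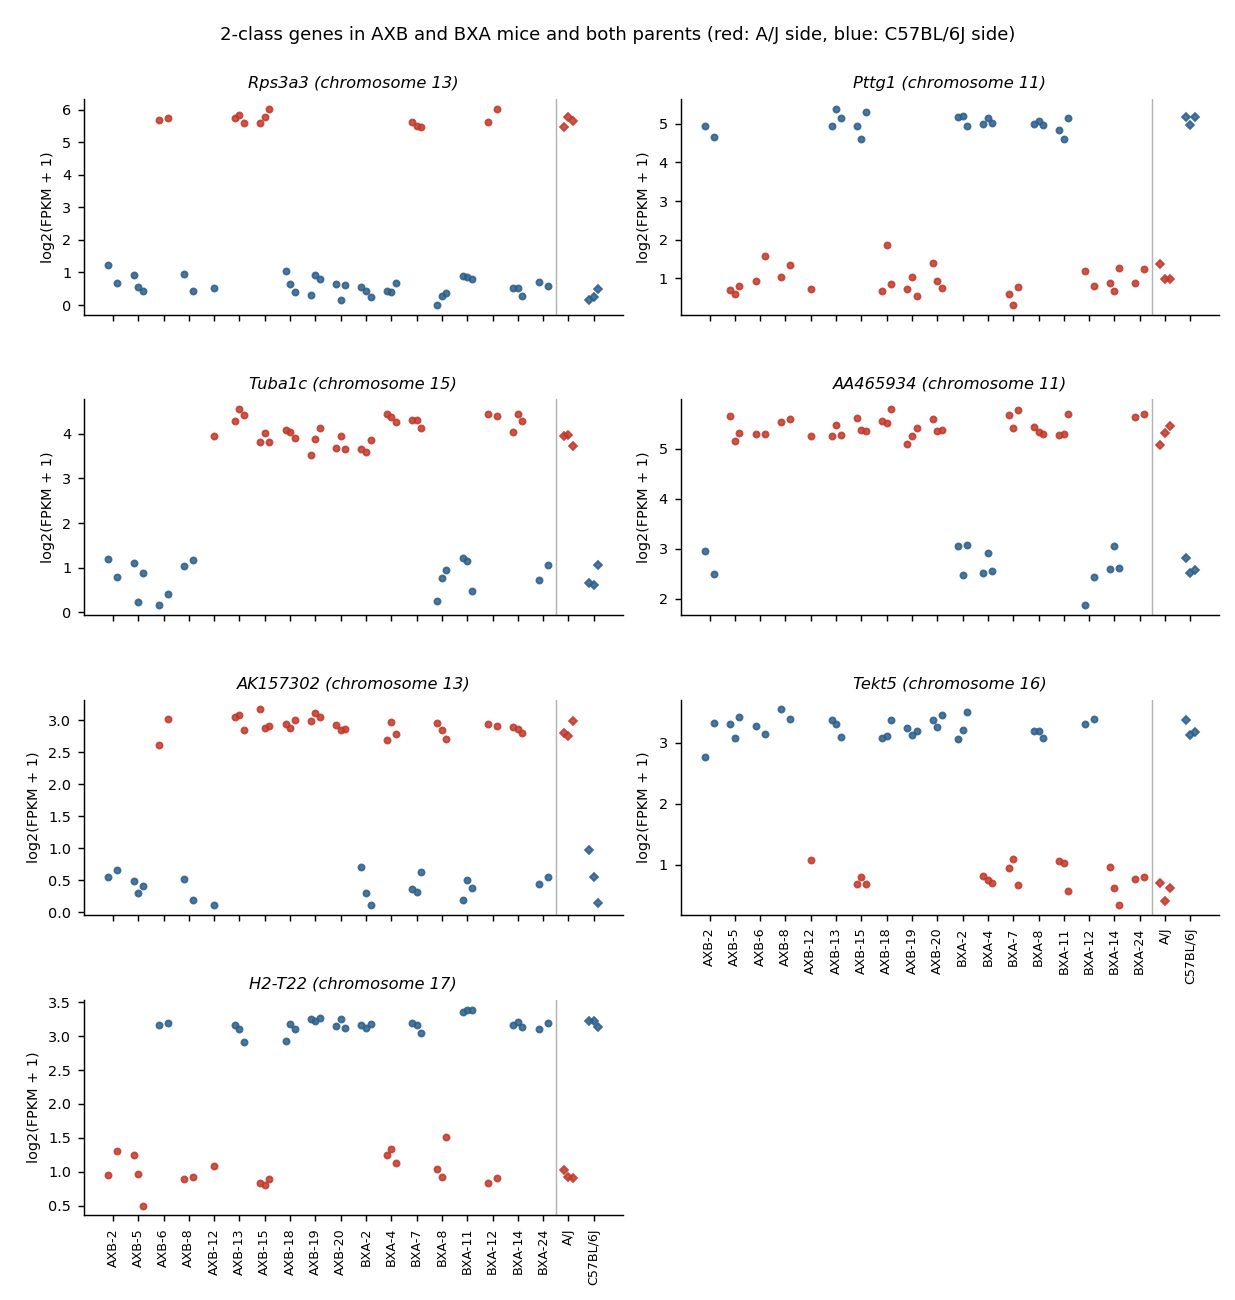
Level of 7 named 2-class genes with wide gaps, in log2(FPKM + 1) on the vertical axis, for every mouse of the 18 strains and of both parents; circles are AXB and BXA mice, diamonds are parental mice, red marks strains on the A/J side and blue those on the C57BL/6J side. In each panel the mice of a strain stay together at 1 level, and the A/J and C57BL/6J mice lie at opposite levels.

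Rps3a3, a single-exon copy of the small ribosomal subunit gene Rps3a1, had the widest gap of the named genes. It lies on chromosome 13 (mm10, chr13:108670580-108671440, plus strand), and GENCODE M21 classes it as a processed pseudogene. In 13 mice of 5 strains (AXB-6, AXB-13, AXB-15, BXA-7 and BXA-12) it ran from 43.3 to 64.3 FPKM with a median of 50.9. The 34 mice of the other 13 strains ran from 0 to 1.37 FPKM with a median of 0.463. The A/J mice had 43.8, 54.5 and 49.9 FPKM and the C57BL/6J mice 0.122, 0.198 and 0.421, so each parent matched 1 class with no overlap (A/J minus C57BL/6J 5.34 ± 0.17 on the log2 scale, SE; adjusted p = 6.78e-24, limma).

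The gene it copies moved the other way in the same strains. Rps3a1 on chromosome 3 (chr3:86137940-86142702) ran from 53.5 to 81.3 FPKM where Rps3a3 was high and from 144.6 to 244 FPKM where it was low, also without overlap. Over the 18 strain means, which share libraries, the log2 values of the pair had r = -0.966. The sequences are given to show how alike the pair is. In an ungapped alignment of 795 bases of the GENCODE M21 transcripts they differ at 9 positions (98.9% identity), with 215 identical bases in the longest run. A stretch of 100 bases from the coding part of Rps3a1 (exonic, in 2 of its 6 exons, mm10 chr3:86141333-86141703, minus strand) and the matching stretch of the single Rps3a3 exon (chr13:108670763-108670862, plus strand) are given 5′ to 3′, with the 2 positions that differ in capitals.
Rps3a1: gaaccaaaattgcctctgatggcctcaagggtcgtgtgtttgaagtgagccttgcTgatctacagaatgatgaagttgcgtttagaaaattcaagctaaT
Rps3a3: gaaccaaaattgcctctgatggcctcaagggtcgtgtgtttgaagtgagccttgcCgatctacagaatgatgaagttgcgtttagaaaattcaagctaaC

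All reads were aligned to the C57BL/6J genome. The part of that choice in these differences was not tested.

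Pttg1, which encodes securin, the inhibitor of separase in cell division, showed the reverse parental order. The 20 mice of 7 strains (AXB-2, AXB-13, AXB-15, BXA-2, BXA-4, BXA-8 and BXA-11) had 23.2 to 40.7 FPKM (median 30.9), and the 27 mice of the other 11 strains had 0.237 to 2.61 FPKM (median 0.806). The A/J mice had 1.57, 0.967 and 0.969 FPKM, and the C57BL/6J mice 35.3, 30.1 and 35.1. None of the 50-base words of its transcripts occurred in a transcript of another gene in GENCODE M21.

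Tekt5, a tektin known from the sperm flagellum, and H2-T22, a non-classical MHC class I gene, were also low in A/J. Tekt5 on chromosome 16 had 5.84 to 10.7 FPKM in 29 mice of 11 strains and 0.26 to 1.13 FPKM in 18 mice of 7 strains, with A/J at 0.62, 0.328 and 0.544 FPKM and C57BL/6J at 9.41, 7.77 and 8.05. H2-T22 on chromosome 17 had 6.56 to 9.5 FPKM in 28 mice of 10 strains and 0.414 to 1.84 FPKM in 19 mice of 8 strains. For both genes the classes were separate in every mouse.

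Tuba1c, AA465934 and AK157302 were higher in A/J. Tuba1c, an alpha-tubulin gene, had 10.4 to 22.4 FPKM in 30 mice of 11 strains and 0.116 to 1.33 FPKM in 17 mice of 7 strains. AA465934 had 33.2 to 54.4 FPKM in 34 mice of 13 strains and 2.67 to 7.42 FPKM in the other 13 mice, and AK157302 had 5.13 to 7.98 FPKM in 28 mice of 10 strains and 0.0781 to 0.629 FPKM in 19 mice. The log2 strain means of Tuba1b, near Tuba1c on chromosome 15 (starts at 98931425 and 99029891), ran against those of Tuba1c (r = -0.812, 18 strains). Those of Tuba1a, another alpha-tubulin gene on the same chromosome, did not (r = 0.005). Unlike Rps3a1, Tuba1b overlapped between the classes, with 51.1 to 75.9 FPKM where Tuba1c was high and 63.5 to 88.8 where it was low. The summed FPKM of Tuba1b and Tuba1c hardly differed between the classes. It ran from 66.5 to 94.2 (median 76.7) where Tuba1c was high and from 64.4 to 89.9 (median 78) where it was low. Of the words of Tuba1c, cut to the same length as those of Pttg1, 44.9% occur in Tuba1b. The part of shared reads in the opposed levels was not tested.

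Further 2-class genes were among those with the largest strain shares. Glo1, which encodes glyoxalase 1 and detoxifies methylglyoxal, had a strain share of 0.986, with 59.5 to 166 FPKM in 18 mice of 8 strains and 28.7 to 37.5 FPKM in 29 mice of 10 strains. Its higher class was not at 1 level. AXB-6 had 59.5 and 63.7 FPKM, BXA-4 62.8 to 66.7 and BXA-12 130 and 166, where A/J had 93.8 to 98.6. Rpl26, a protein of the large ribosomal subunit, had a strain share of 0.983 and ran from 220 to 316 FPKM in 20 mice and from 42.2 to 86.8 FPKM in 27 mice. Scoc, a coiled-coil protein of the Golgi, had a strain share of 0.979, with 44.6 to 54.2 FPKM in 13 mice and 14.6 to 21.4 FPKM in 34 mice. Nvl, an ATPase of ribosome assembly, also stood at 0.979, with 14.5 to 18.1 FPKM in 23 mice and 6.35 to 8.29 FPKM in 24 mice.

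Among the 2-class genes, the direction of the parental difference went with whether a locus had a gene name. Of the 145 genes, 84 were higher and 61 lower in A/J, where the parental test over all genes called 4.85% higher and 7.44% lower. Among the 64 loci with no gene symbol, 53 were higher in A/J and 11 in C57BL/6J. Among the 61 genes with 1 symbol other than Gm or Rik names, 21 were higher in A/J and 40 in C57BL/6J. Loci without a symbol made up 44.1% of the 2-class genes and 13.8% of all gene rows. A parent was under 0.1 FPKM in its 3 mice at 24 genes, C57BL/6J at 20 of them and A/J at 4. The direction at unnamed loci outside the 2 classes was not counted. Names came from an annotation and reads were aligned to the C57BL/6J genome, and the part of these choices in the split was not tested.

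Sequence shared with other genes was frequent among these genes. Of 75 two-class genes with 1 symbol that matched GENCODE M21, 33 (44%) had at least 10% of their 50-base words in a transcript of another gene. The same held for 697 of 10914 matched genes overall (6.39%) and for 7.1% of the called genes outside the 2 classes. Of the genes named above, AK157302 shared 66% of its words, Rps3a3 65.1%, Tuba1c 52.7%, H2-T22 34.5% and Rpl26 22.7%. Glo1 shared 5.66%, Scoc 4.95% and Nvl 1.54%, and Pttg1, Tekt5 and AA465934 shared 0. Hba-a2, a 2-class gene given below, shared 89.3%. Reads were kept when they aligned to up to 10 loci, so values of such genes can hold reads of a copy.

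Neighbouring 2-class genes split the strains alike. The 126 genes with a position were set against each other in pairs, counting the strains on the same parental side. On average 87% of strains were on the same side for the 12 pairs under 1 Mb apart, and 9 of those pairs agreed in all 18 strains. The mean share was 70.7% at 1 to 5 Mb, 64.7% at 5 to 20 Mb, 57.9% at 20 to 50 Mb, 50.7% beyond 50 Mb and 51.3% for pairs on different chromosomes. Among all 4223 called genes with a position and a mean of at least 1 FPKM, the median absolute r of log2 strain means was 0.303 under 1 Mb and 0.223 between chromosomes. These are descriptions, since the pairs share strains and libraries.

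**Figure D2:**
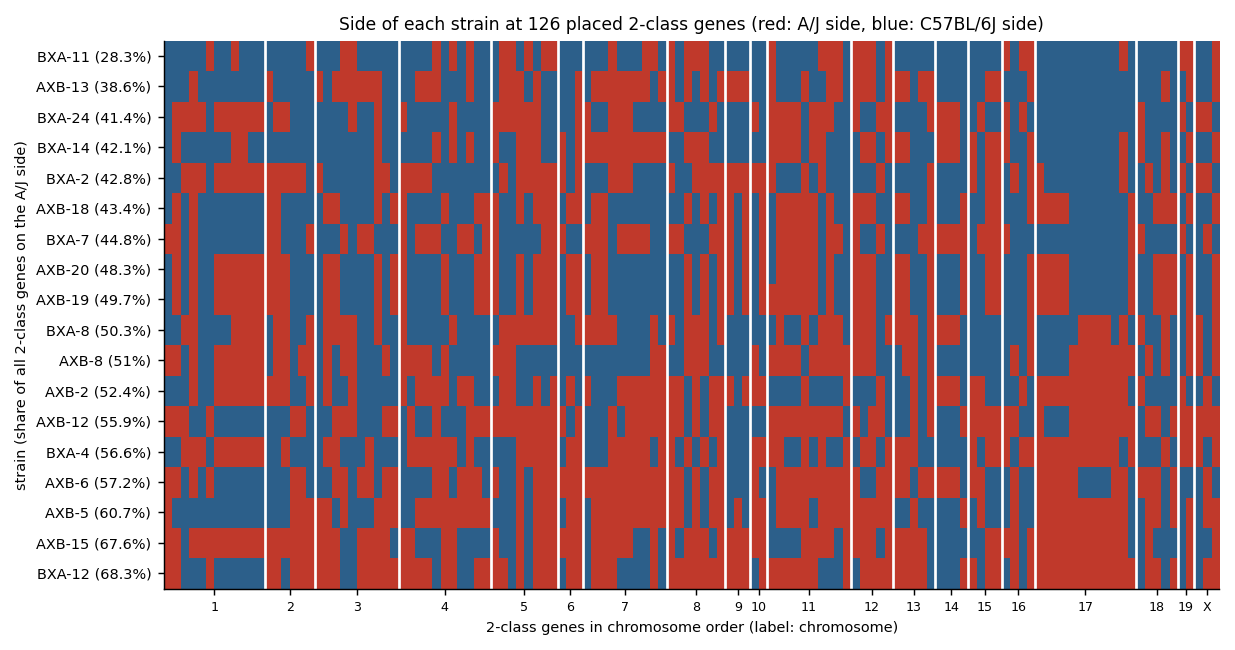
Parental side of each strain (rows, with the share of the 145 genes on the A/J side) at the 126 two-class genes with a position, in chromosome order along the horizontal axis; red is the A/J side, blue the C57BL/6J side, and white lines part the chromosomes. Blocks of 1 colour run over neighbouring genes, as on chromosome 17, and the share on the A/J side goes from 28.3% in BXA-11 to 68.3% in BXA-12.

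The 4 stretches of 5 Mb with most 2-class genes held 3 each. On chromosome 17 at 35 to 40 Mb, the MHC class I genes H2-Q2, H2-T24 and H2-T22 were high in the same number of strains, 10, and low in A/J. H2-Q2 had 3.56 to 9.21 FPKM in the higher class and 0.411 to 1.9 in the lower, and H2-T24 had 1.84 to 3.9 and 0.17 to 1.22 FPKM. On chromosome 17 at 20 to 25 Mb, Rnps1, a splicing factor, and Atp6v0c, the proteolipid subunit of the vacuolar proton pump, were low in A/J, and the serine protease gene Prss41 was high. Atp6v0c had 141 to 197 FPKM in the higher class and 41.9 to 66.6 FPKM in the lower. On chromosome 14 at 50 to 55 Mb the genes were Gm26782, Psmb5 (a catalytic proteasome subunit) and Ppp1r3e (a regulator of glycogen metabolism), each high in 12 strains. On chromosome 5 at 100 to 105 Mb, Coq2, an enzyme of ubiquinone synthesis, had 28.2 to 33.5 FPKM in 4 strains and 13.1 to 18.4 FPKM in 14, and the other 2 loci had no symbol.

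Some genes on different chromosomes also split the strains identically. Of 7430 pairs on different chromosomes, 51 agreed in all 18 strains, 30 of them with 1 gene high where the other was low, and 40 involved a locus with no symbol. Gm10260 on chromosome 13 (chr13:97760130-97760588) had 52 to 80.4 FPKM in 19 mice of 8 strains and 0 to 0.792 FPKM in the other 28 mice. Rps18 on chromosome 17, a small-subunit ribosomal protein gene, had 49.9 to 66.8 FPKM in those 19 mice and 87.6 to 140 FPKM in the other 28. Of the 50-base words of Gm10260, 56.6% occur in Rps18, and none occurs in H2-T22, which lies near Rps18 and shared the same split.

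Rpl26 and Eno1 also ran against loci on other chromosomes. Where Rpl26 was low, an unnamed locus on chromosome 5 (XLOC_027629) had 137 to 226 FPKM in 27 mice, against 0.35 to 6.82 FPKM in the 20 mice in which Rpl26 was high. Another unnamed locus on chromosome 1 (XLOC_000253) split likewise, with 46.2 to 70.5 and 1.2 to 2.61 FPKM. Eno1 on chromosome 4, the glycolytic enolase, had 154 to 213 FPKM in 30 mice of 11 strains and 80.3 to 105 FPKM in 17 mice of 7 strains. Gm5506 on chromosome 18 had 18.3 to 31.5 FPKM in those 17 mice and 0 to 0.67 FPKM in the other 30. Of the 50-base words of Eno1, 26% occur in a transcript of another gene. Gm5506 was not found under that name in GENCODE M21, so its sequence was not compared with that of Eno1.

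Gm6472 on the X chromosome ran against Acp1 on chromosome 12, with no 50-base word in common. Gm6472 had 16.2 to 32.9 FPKM in 35 mice and 2.37 to 5.28 FPKM in 12 mice, and Acp1, a low molecular weight phosphatase, had 2.69 to 4.58 and 8.41 to 10.8 FPKM in the same mice. With no genome sequence at hand, the unnamed loci were not compared by sequence.

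Strains differed in how often they took the A/J side. The share of the 145 genes ran from 28.3% in BXA-11 and 38.6% in AXB-13 to 67.6% in AXB-15 and 68.3% in BXA-12. AXB strains had a median of 51.7% and BXA strains of 43.8%, with ranges of 38.6 to 67.6% and 28.3 to 68.3% that overlapped. AXB-19 and AXB-20 were on the same side at 143 of 145 genes, and AXB-18 at 136 of 145 with either of them. The other 150 pairs of strains agreed at 38 to 104 genes (median 72).

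In 28 genes, 0.199% of those tested, every mouse of 1 strain with at least 2 mice lay at least 0.5 on the log2 scale beyond all mice of the other 17 strains. The strain was above the others in 17 genes and below in 11. The parents differed in 7 of the 28 (adjusted p under 0.05). In 12 of the 28, none of the other 235 mice of the series was as far out as that strain. AXB-2 held 11 of the genes, BXA-8 and AXB-6 held 3 each, and 9 further strains held 1 or 2. AXB-2 has 2 mice, 1 of them rich in pituitary and choroid plexus genes. Without the mice rich in pituitary genes 16 genes remained, all among the 28, and AXB-2, then with 1 mouse, could not count. Without the mice rich in choroid plexus genes there were 18, of which 14 were among the 28, and leaving out replicate 1, 2 or 3 gave 15, 15 and 33.

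Vcam1, the vascular cell adhesion molecule, was high in BXA-4. Its mice had 25.1, 24.7 and 22.9 FPKM, and the 44 mice of the other strains 5.91 to 8.93 FPKM. A/J had 6.66, 6.94 and 8 FPKM, C57BL/6J had 7.53, 7.64 and 6.89, and the highest of the other 235 mice had 10.7. Clec18a, a C-type lectin gene, was high in AXB-15 with 8.17, 8.28 and 10.4 FPKM, against 0.64 to 3.5 FPKM in the other strains and at most 4.85 in the rest of the series. Neither gene differed between the parents beyond their spread (adjusted p = 0.856 and 0.989, limma contrast).

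Erdr1, a gene of the pseudoautosomal region, was listed at 0 FPKM in the 3 mice of BXA-2, where the other strains had 4.74 to 67 FPKM. Its values varied widely among those strains too, and 10 of the 235 other mice were also at 0. Rplp0, the P0 protein of the ribosomal stalk, had 38.7 and 34.2 FPKM in AXB-2 and 83.8 to 124 FPKM in the other strains, while 54 of the other 235 mice were as low. Zfp493, a zinc finger gene, had 4.8 and 4.41 FPKM in AXB-2 and 0.655 to 2 FPKM in the other strains, and 64 of the other 235 mice were as high. The parents lay far from AXB-2 in both genes, with Rplp0 at 80.1 to 94.5 FPKM in A/J and 91.5 to 119 FPKM in C57BL/6J. For Zfp493 the strain test gave an adjusted p = 0.0587 without replicate 2 (limma).

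**Figure D3:**
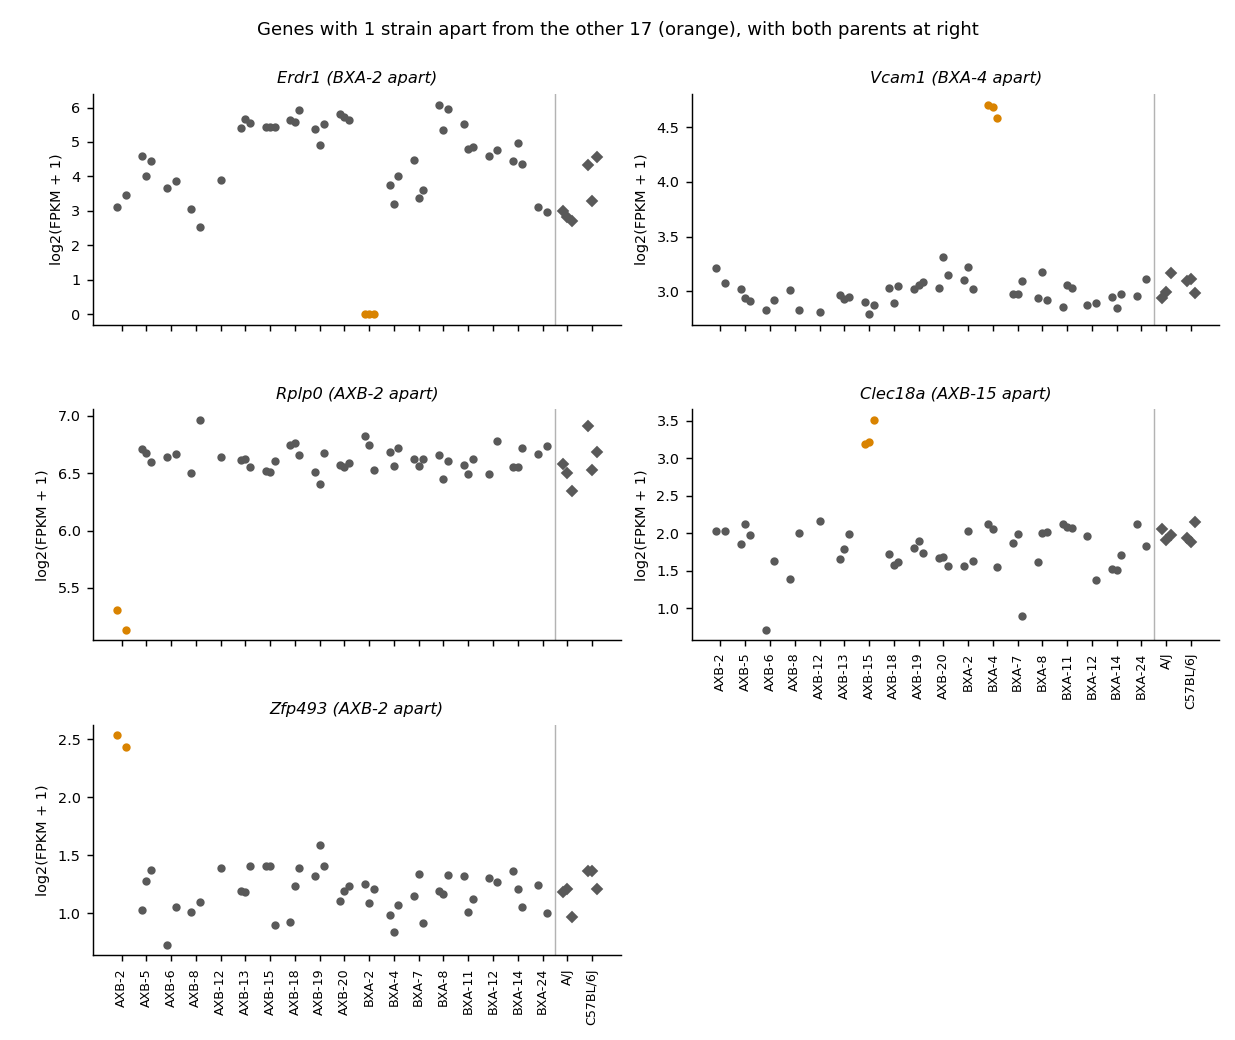
Level of 5 named genes in which 1 strain stood apart, in log2(FPKM + 1) on the vertical axis, for every mouse of the 18 strains (circles) and of the parents (diamonds); the strain apart is orange. The mice of BXA-4 in Vcam1 and of AXB-15 in Clec18a lie beyond every other mouse, while Erdr1 is at 0 in BXA-2 and varies among the rest.

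Other genes of this kind were named after their values were seen. Txn1, the cytosolic thioredoxin, had 89, 89.2 and 100.4 FPKM in BXA-11 and 34.7 to 56.4 FPKM in the other strains. Pgap1, which remodels GPI anchors, had 4.74, 4.36 and 4.52 FPKM in BXA-8 against 8.89 to 13 FPKM, and the somatostatin receptor gene Sstr3 had 1.06, 1.06 and 0.0291 FPKM there against 2.18 to 3.88. Tspyl4 had 122, 121 and 122 FPKM in AXB-13 against 187 to 283 FPKM. Hbb-bs, an adult beta-globin gene, had 33.4 and 33.2 FPKM in AXB-6 against 49.6 to 191, and 3 of the other 235 mice of the series were as low. Summed blood genes, Hbb-bs included, were lowest in these 2 AXB-6 mice, at 44.8 and 41 FPKM against a median of 133.9. Hbb-bs itself makes up most of that sum in both mice, so the sum is no separate observation. In the single AXB-12 mouse, Rragb, an X-linked GTPase of amino acid sensing, had 5.5 FPKM, the other 46 mice had 38.5 to 48.5 and the rest of the series at least 36.9. With 1 mouse that difference has no replicate check.

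Some of the 1-strain genes lay next to each other. Positions with a mean of at least 1 FPKM (12189 loci) were scanned for runs of at least 4 neighbours in which 1 strain lay at least 0.5 on the log2 scale to the same side of the median strain, a rule set after the values were seen. There were 4 runs, of which 2 were adjacent. In AXB-2 they covered 306 kb of chromosome 2 (chr2:25240539-25546940) with 16 loci, 14 of them at least 0.5 above the median strain. The median difference was 0.83 and the largest 1.02 on the log2 scale. At 13 of the 16 loci both AXB-2 mice were above all 45 mice of the other strains. In the 1 Mb on either side, 30 loci had differences of -0.32 to 0.24.

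The genes of this stretch have unrelated roles. Anapc2, a subunit of the anaphase-promoting complex, had 86.8 and 84.3 FPKM in AXB-2 and 34.5 to 51.1 FPKM in the other strains. Grin1, the obligatory subunit of NMDA receptors, had 171.9 and 206 FPKM against 87.6 to 119.6. Abca2, a lipid transporter of oligodendrocytes, had 123 and 139 FPKM against 62.6 to 90.5, and Fbxw5, an F-box protein, 71 and 74.2 against 32.8 to 46.2 FPKM. Ptgds, prostaglandin D2 synthase, had 441 and 472 FPKM against 116 to 1170, which overlapped, and was not called. An unnamed locus in the stretch was 0.94 lower than the median strain. The A/J values of Anapc2 were 40.1, 43.4 and 47.2 FPKM and those of C57BL/6J 43.4, 40 and 46.2, inside the range of the other strains. Both AXB-2 mice were raised, the one rich in pituitary genes and the other.

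BXA-7 had a run of 5 loci over 112 kb of chromosome 8 (chr8:70693056-70805031), and all 3 of its mice were above all 44 mice of the other strains at all 5. Rab3a, the GTPase of synaptic vesicles, had 622, 564 and 569 FPKM against 270.1 to 373, and Jund, a subunit of the AP-1 transcription factor, had 62.3, 55.3 and 60.8 against 30.4 to 44.3 FPKM. The others were Gm11175, Mpv17l2 and the joined locus Ifi30/Mast3/Pik3r2. The median difference was 0.78 on the log2 scale, and 56 loci within 1 Mb had differences of -0.22 to 0.24. The remaining run, in AXB-8 on chromosome 17, held 7 loci in the MHC, from Psmb9 to BC051142. Its mice overlapped the other strains at all 7, and 1 of these 2 mice had the 15828 FPKM of pituitary genes.

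**Figure D4:**
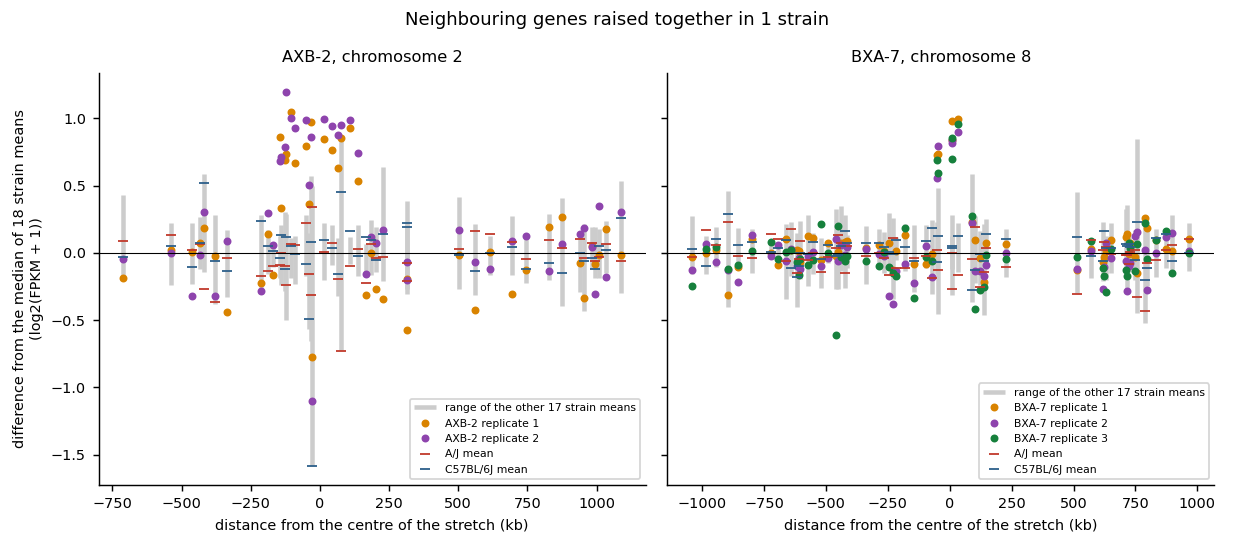
Difference of each mouse from the median of the 18 strain means, in log2(FPKM + 1), for AXB-2 on chromosome 2 and BXA-7 on chromosome 8, by distance in kb from the centre of the stretch; grey bars give the range of the other 17 strain means and dashes the parental means. Near the centre the coloured mice lie mostly between 0.5 and 1 above the grey bars' zero line, and on both flanks they return to it.

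Gene lists chosen for the hypothalamus and its cell types showed how strain differences spread over function. Background for their counts is the 33.5% called over all genes, or 34.1% of genes with a mean of at least 1 FPKM in these mice. Glucocorticoid-responsive genes had 12 of 12 measured members called and a median strain share of 0.553, against 0.246 over all genes. Blood genes also had every member called (5 of 5, median share 0.618), and the known variants between the parents had the highest median share (0.737). The glucocorticoid-responsive genes are induced by the adrenal stress hormone through its receptor. The strain with the highest mean was BXA-2 for 6, BXA-24 for 5 and BXA-4 for 1 of them. Averaged over the list, the mice of BXA-24 lay 0.42 and 0.69 above the mean of all 47 on the log2 scale and those of BXA-2 0.46 to 0.57, while AXB-13 was lowest at -0.46 to -0.33. The highest single mouse was BXA-11 replicate 1 at 0.7, with the other 2 mice of that strain at 0.03 and -0.22.

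Single genes of the list followed 1 or the other strain. Zbtb16, a transcription factor gene, had 9.48 and 7.05 FPKM in BXA-24, 9.98, 6.45 and 5.94 in BXA-2, and 1.76 to 6.51 (median 2.9) in the other 42 mice. Mt2, a metallothionein gene, had 390 and 366 FPKM in BXA-24 and 121 to 345 in the other 42 mice, with BXA-2 at 199 to 231. Pdk4, which inhibits pyruvate dehydrogenase, was highest in BXA-2 with 5.94, 6.68 and 6.23 FPKM against 1.95 to 5.11. Tsc22d3, known as GILZ, had 60.2 to 61.9 FPKM in BXA-2 and 27.9 to 66.5 in the other 42 mice, so single mice of other strains were as high. Plin4, of lipid droplets, had 6.9 and 4.71 FPKM in BXA-24 and a median of 0.708 in the other 42 mice. Mt1, Mt2 and Pdk4 differed between the parents and the other 9 did not pass that test. Without replicate 2, 1 of the 12 was called, and without replicate 1 or 3, 6 and 8. BXA-2 replicate 2 and BXA-11 replicate 1 were rich in choroid plexus genes, and without all 8 such mice 12 of the 12 were called. Stress and handling at death were not given in the labels, and their part was not tested.

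Genes of myelin and oligodendrocytes were called in 12 of 16 (75%), with AXB-20 highest for 10. The list averaged 0.33 above the mean in AXB-20, 0.27 in AXB-18 and 0.2 in AXB-19, and lowest in AXB-2 at -0.25. The low value of AXB-2 came from replicate 1 at -0.46, the mouse with 6924 FPKM of pituitary and 1094 FPKM of choroid plexus genes, while replicate 2 was at -0.03. Thalamic genes averaged 0.25 above the mean in AXB-20 and 0.23 in AXB-18, and hypothalamic identity genes -0.18 and -0.095 in those strains. With pituitary, choroid plexus and thalamus levels as covariates 11 of the 16 myelin genes were called. Ugt8a, which makes galactosylceramide, ran from 15.1 ± 1.66 FPKM (SD, n = 2) in BXA-24 to 36.2 ± 3.68 (SD, n = 3) in AXB-20, and Opalin from 9.11 ± 1.18 (SD, n = 3) in BXA-14 to 22.1 ± 3.8 (SD, n = 3) in AXB-18. Without AXB-18 and AXB-20, 8 of the 16 were called, and without replicate 2 only 1. In microglia 10 of 13 genes were called: Ctss, the protease cathepsin S, ran from 26.7 ± 1.23 in AXB-15 to 49.5 ± 2.88 FPKM in BXA-2 (SD, n = 3 each). Csf1r, the receptor for colony-stimulating factor 1, ran from 12.4 ± 0.169 (SD, n = 2) in AXB-2 to 18.6 ± 2.32 FPKM (SD, n = 3) in BXA-2. In astrocytes it was 10 of 13, led by the transcription factor Sox9 (6.95 FPKM in BXA-2 to 12.7 in BXA-12) and by Glul, glutamine synthetase (326 in AXB-6 to 517 in BXA-24). In endothelium it was 5 of 9, led by Ly6a (4.23 in AXB-6 to 19 FPKM in BXA-24) and the tight junction gene Cldn5 (10.1 in BXA-2 to 19.5 FPKM in AXB-5).

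Hypothalamic peptides were called in 10 of 22 (45.5%), led by Gal, galanin, from 18.9 ± 1.35 FPKM (SD, n = 2) in BXA-12 to 51.5 ± 3.73 (SD, n = 3) in AXB-15. Sst, somatostatin, went from 126 ± 10.5 (SD, n = 3) in AXB-13 to 205 ± 32.3 FPKM (SD, n = 2) in AXB-6. AXB-6 was highest for 9 of the 22. Agrp and Oxt stand in loci joined with other genes and were not counted. Leptin, insulin and melanocortin signalling had 7 of 24 called (29.2%), near the background, with Foxo1 at 3.58 to 5.38 FPKM and Cckar at 1.54 to 2.75 FPKM over strains. Without replicate 2 or 3, 1 and 3 of the 24 were called. Hypothalamic identity genes had 8 of 15, led by Nr5a1, the steroidogenic factor of the ventromedial nucleus (1.42 in AXB-19 to 3.53 FPKM in AXB-8), and Irs4 (12.9 in BXA-12 to 22.5 FPKM in BXA-11). Of these 15 genes, 3 were called with pituitary, choroid plexus and thalamus levels as covariates, 4 without AXB-18 and AXB-20, and 3 and 1 without replicate 1 or 3, while without replicate 2 every call was lost (limma).

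GABA-A receptor subunits had 8 of 12 called, with Gabrq at 11.3 in BXA-12 to 20.9 in AXB-6. Glutamate receptor subunits had 12 of 20 called, led by Grin1, described above, and Grik5 (31.1 in AXB-20 to 37.5 FPKM in BXA-24). Gabra2 stands in a locus joined with Gabrg1. Over strain means, the 20 called members of both families spanned under 1 on the log2 scale except Grin1, Gabrd and Grin2b. Without replicate 2, 1 of 20 glutamate receptor genes was called, and every GABA-A gene lost its call (limma). The 8 GABA-A calls also fell to 2 without the mice rich in choroid plexus genes, to 3 without AXB-18 and AXB-20, to 4 with mapped and unique reads as covariates, to 5 with the tissue covariates or with the mouse of 2 strain names added to either strain, and to 1 and 2 without replicate 1 or 3.

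MHC and antigen presentation had 13 of 16 called (81.2%), led by H2-T22 and H2-T24, and interferon-stimulated genes 6 of 12. Ifit3 ran from 0.913 ± 0.352 in BXA-11 to 4.52 ± 0.563 FPKM in AXB-19 (SD, n = 3 each), with A/J at 0.948 and C57BL/6J at 3.69, and Stat2 from 5.15 in BXA-12 to 7.1 FPKM in AXB-15. Clock genes had 8 of 16 called: Nr1d2 ran from 25.7 ± 0.925 in AXB-13 to 35.7 ± 3.62 FPKM in BXA-2 (SD, n = 3 each), and Per1 from 10 in BXA-12 to 16.2 FPKM in BXA-2. Immediate early genes had 7 of 12, led by Jun (10.4 in BXA-14 to 18.2 FPKM in AXB-20) and Dusp1 (6.46 in AXB-13 to 19.1 FPKM in AXB-8). Time of death was not in the labels. Without replicate 2 the called counts were 7 of 16 for MHC, 2 of 12 for interferon-stimulated, 1 of 16 for clock genes, and the call of every immediate early gene was lost (limma).

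Oxidative phosphorylation genes had 20 of 36 called and cytosolic ribosomal proteins 22 of 37. Cox7a2l, an assembly factor of respiratory supercomplexes, ran from 45.8 ± 5.32 (SD, n = 3) in BXA-7 to 80.9 ± 5.44 FPKM (SD, n = 2) in BXA-24, with A/J at 46 and C57BL/6J at 72.7. Atp5e ran from 108 in AXB-13 to 225 FPKM in AXB-8. Rpl3 ran from 105 ± 2.21 (SD, n = 2) in AXB-6 to 202 ± 5.43 FPKM (SD, n = 3) in BXA-2, and Rpl30 from 75.1 in AXB-6 to 193 FPKM in AXB-8. Genes on a list of known variants between the parents had 10 of 13 called, led by Glo1 and by Alad, an enzyme of haem synthesis, from 12.8 in BXA-14 to 41.6 FPKM in AXB-5. Without replicate 2, 1 of 36 oxidative phosphorylation, 8 of 37 ribosomal, 4 of 13 microglial, 1 of 13 astrocytic and 1 of 9 endothelial genes were called, and every peptide gene lost its call (limma). The variant list was drawn up from differences already known between A/J and C57BL/6J.

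Further settings moved the counts of several lists by over 1.5 times. Without the mice rich in choroid plexus genes, the called counts were 11 for ribosomal proteins, 12 for oxidative phosphorylation, 8 for MHC, 5 for clock, 4 for immediate early, 3 for interferon-stimulated and 4 for hypothalamic identity genes. Without those rich in pituitary genes, 5 clock and 3 immediate early genes were called. Taking the spread within strains from all 99 strains of the series gave calls in 3 of 36 oxidative phosphorylation, 6 of 37 ribosomal, 5 of 16 MHC, 5 of 13 astrocytic, 6 of 20 glutamate receptor, 1 of 12 GABA-A, 5 of 16 clock, 3 of 12 immediate early, 1 of 12 interferon-stimulated and 3 of 15 hypothalamic identity genes. In that setting 11 glucocorticoid-responsive, 9 microglial and 13 myelin genes were called. With the tissue covariates, 3 immediate early and 3 interferon-stimulated genes were called, and without AXB-18 and AXB-20, 13 oxidative phosphorylation genes. Immediate early genes had 4 calls with mapped and unique reads as covariates and 3 with the mouse of 2 strain names in AXB-8.

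Leaving out replicate 1 gave 12 oxidative phosphorylation, 7 glutamate receptor, 6 astrocytic, 5 peptide, 3 microglial, 3 endothelial, 3 immediate early and 1 interferon-stimulated gene. Leaving out replicate 3 gave 4 oxidative phosphorylation, 10 ribosomal, 7 MHC, 7 myelin, 6 microglial, 5 peptide, 5 clock, 3 astrocytic, 2 glutamate receptor, 2 immediate early and 2 interferon-stimulated genes.

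Among genes of other tissues, 0 of 6 pituitary and 0 of 5 choroid plexus genes passed the limma test, and Ttr, transthyretin, had the lowest adjusted p of the choroid plexus genes (0.0594). At an unadjusted p under 0.05 the counts were 0 and 1. The Kruskal-Wallis test called 0 genes over the whole table after adjustment and so says nothing about these. Without the mice rich in pituitary genes 1 pituitary gene was called, and 1 choroid plexus gene without the mice rich in those genes or with the tissue covariates (limma). Those mice were picked by the summed levels of these same genes. The tissue covariates are the mean levels of the pituitary, choroid plexus and thalamic lists. Calls of list members in these settings, the thalamic ones included, are therefore not independent of the setting. The highest means of Gh, growth hormone, and of Ttr each came from a strain in which 1 mouse was far above the others. Thalamic genes had 2 of 5 called, Tcf7l2 (42.6 in BXA-11 to 84.9 FPKM in the AXB-12 mouse) and Lef1 (7.65 in AXB-2 to 15.5 FPKM in BXA-12). Blood genes had 5 of 5, led by Hba-a2, an alpha-globin gene, listed at 0 FPKM in AXB-6 and at 9.28, 6.67 and 13.6 in BXA-2, and by Hbb-bt. Y-linked genes and Xist had 2 of 4 called, Kdm5d (4.86 to 7.91 FPKM over strains) and Ddx3y (13 to 19.9 FPKM). Of these small lists, the thalamic count ran from 0 without replicate 3 to 4 with the tissue covariates, the blood count was 3 without replicate 1 or 2, and that of Y-linked genes and Xist ran from 0 without replicate 2, or without the mice rich in choroid plexus genes, to 4 without AXB-12 (limma).

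**Figure D5:**
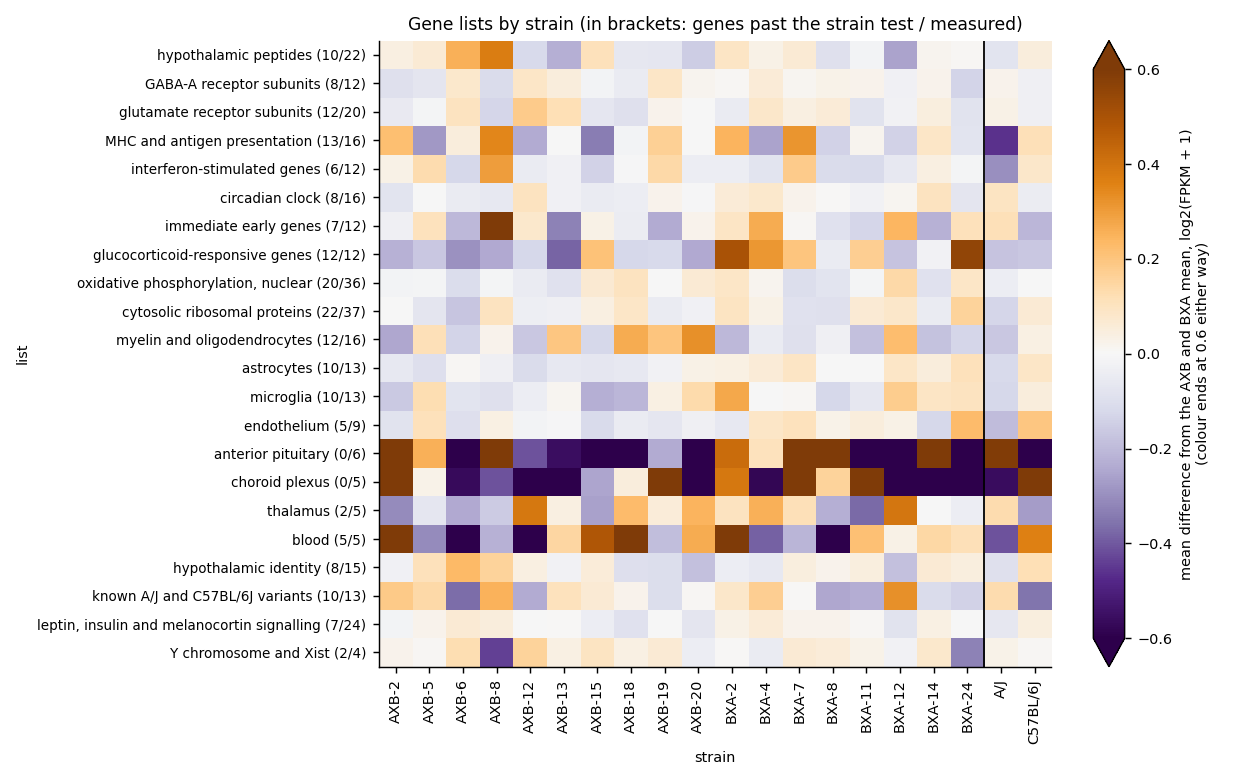
Mean difference of each gene list (rows) from the mean of the 47 mice in log2(FPKM + 1), by strain and for both parents (columns, right of the line); brackets give genes past the strain test and genes measured. The glucocorticoid-responsive row is highest in BXA-24 and BXA-2, the myelin row in AXB-20 and AXB-18, and the pituitary and choroid plexus rows, where 0 genes passed the test, reach the ends of the colour scale at 0.6 in many strains.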

How the data were processed

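The authors aligned unstranded paired-end reads to mm10 with STAR 2.3.1, allowing up to 3 mismatches and 10 loci, built transcript models (Cufflinks 2.2.0), joined these to GENCODE M2 and quantified the merged set (Cuffnorm 2.2.1). The deposited table gives FPKM scaled between mice by the authors for 14079 genes. Every gene was detected in 100 mice or more and passed 1 FPKM in 50 or more, as checked on the values. FPKM carry no counts, so no counting interval was computed. The library totals the study lists were used for depth.

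Values were transformed as log2(FPKM + 1) and the 18 strains were compared over 47 mice by limma's moderated F test (limma 3.58.1, R 4.3.3), with Benjamini-Hochberg adjustment over all genes at 0.05. The test had 29 residual degrees of freedom. Parents were compared by a contrast fitted with the 18 strains. The 2-class and 1-strain definitions use gaps of 0.25 and 0.5 and carry no test. Both scripts were tested on simulated data. Gene names and positions (mm10) came from the deposited assembly and sequences from GENCODE M21, a release in mm10 coordinates. Tables and plots used pandas 2.3.3 and matplotlib 3.10.9 (Python 3.11.15).

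Genes named were the 12 with the largest strain share, the 8 two-class genes with the widest gap and the 6 one-strain genes with the widest gap, each with 1 symbol other than Gm or Rik names, a mean of at least 1 FPKM and at most 1 per 2 Mb; the 2 genes of largest strain share in each of 22 lists; and the genes of the 5 Mb stretches. Some genes these rules pick are not reported here. Because 4 stretches tied, 4 are given where 3 were planned. Other genes were chosen after their values were seen, the pairs on different chromosomes, runs and word counts too. The members and lists were chosen with earlier results of these data known. All columns were used except the mouse with 2 strain names, which stays in values over the other 235 mice.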

Additional observations from a re-analysis of the deposited data

How the results depend on the processing

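The count of genes called among strains depended on the number of mice: leaving out replicate 1, 2 or 3 gave 989 to 2076 genes, and leaving out the 8 mice rich in choroid plexus genes 2876, an alternative chosen after seeing the data, as was that for the pituitary. The Kruskal-Wallis test called 0, with 4128 at an unadjusted p under 0.05, and 56 of 60 named genes lost their call there. The median strain share moved to 0.282 with mapped reads and unique reads as covariates and was 0.253 to 0.319 without a replicate. The 2-class genes, and those with the parents in opposite classes, were 54 when the mouse with 2 strain names was placed in AXB-6 and 95 at a gap of 0.5. The genes with 1 strain apart were 52 at a gap of 0.25, 6 at a gap of 1, 15 to 33 without a replicate, 16 without the mice rich in pituitary genes and 18 without those rich in choroid plexus genes. The parental contrast called 803 genes from the 6 parental mice alone and 853 to 916 without a replicate. Of the other alternatives listed in the methods or run (pseudocounts of 0.1 and 0.01, a mean of at least 1 FPKM, quantile normalization, tissue lists as covariates, the spread of all 99 strains, the mouse placed in AXB-8, and no AXB-12 or no AXB-18 and AXB-20), each kept these counts over all genes within 1.5 times. Counts of gene lists moved more, and under the spread of all 99 strains oxidative phosphorylation genes went from 20 to 3 and ribosomal genes from 22 to 6. Over all alternatives, 894 of 1020 results for named genes kept their side of the threshold. No paired analysis was possible because the replicate numbers only name mice within a strain. With no counts in the files, small levels near 0 FPKM have no known precision.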

Other observations

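The mouse whose title names AXB-8 and whose strain label names AXB-6 was compared at the 91 two-class genes at which those strains lay in different classes. It was on the side of AXB-8 at 91 and on that of AXB-6 at 0. It was left unassigned, and placing it in AXB-8 left the number of 2-class genes at 145.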
